A study of Mus musculus with 21 samples.

Results

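Kallikreins, serpins and Spink inhibitors were followed in sorted mouse epidermal keratinocytes with and without chronic p16 expression. Members were all genes of the expression table whose symbol begins with Klk or Spink and a number, or with Serpin, a clade letter from a to i and a number, which gave 100 of the 22050 entries: 26 Klk genes, 12 Spink genes and 62 serpins. Kallikrein-related peptidases are secreted serine proteases. In skin, Klk5, Klk7 and Klk14 cut the desmosomal proteins that hold cornified cells together, and so control shedding of the outer layer. Spink proteins block such enzymes reversibly through Kazal domains, whereas serpins trap a protease by a change of shape that cannot be undone. Loss of Spink5 causes Netherton syndrome, a disease of unchecked kallikrein activity.

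The samples were GFP-positive keratinocytes from dorsal skin of male mice on a mixed FVB, C57Bl6 and 129sv background. In p16 mice (K5-rtTA/tet-GFP/tet-p16), doxycycline switched on GFP and human p16 in basal epidermal cells, where the K5 promoter is active. The control mice (K5-rtTA/tet-GFP) carried the same activator and GFP without the p16 transgene and received the same drug. Doxycycline was given from 3 weeks of age for 6 months, and cells stained for CD140a, CD45 or CD31 were gated out. Each sample pooled about 80000 sorted cells from 3 mice, with 4 samples per group. GFP marks cells with an active driver, and the p16 level of each cell was not measured.

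Libraries read the 3′ ends of transcripts. Values are each gene's reads over its library's size factor, called normalised reads here. Whole reads could be recovered from them, and the libraries held 3414362, 2068248, 3067190 and 1760953 reads for the controls, in the order of replicates 1 to 4 used throughout, and 3150237, 3202975, 2884544 and 3169274 for the p16 samples. A value of 1 read lay between 0.742 and 1.53 normalised reads, so genes with values of a few units rest on a few reads.

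The transgene was checked in every library first. Human CDKN2A had 1, 1, 3 and 1 reads in the controls, 13, 18 and 9 reads in p16 replicates 2 to 4, and 2 reads in the library labelled p16 replicate 1, which lies within the control range. EGFP, the marker of the sort, had 4152.0, 5798.2, 5458.0 and 5912.6 normalised reads in controls and 3624.4, 3978.8, 3161.8 and 3453.3 in p16 samples. Every p16 library lay below every control, and the part of this difference in the results was not tested. Separately, p16 replicate 4 stood apart from the other p16 libraries, with a chi-square per gene of 6.75 to 8.96 against them, where those differed from each other by 3.05 to 3.31 and control libraries by 3.64 to 5.33. Counts of called genes over the whole table and for the Klk, Spink and serpin families are given with and without these libraries. Basal keratinocyte markers were abundant in every sample, with Krt5 between 9045.9 and 17968.5 normalised reads and Krt14 between 8427.2 and 15562.2. Recovered Krt5 reads lay only between 11761 and 12279 and Krt14 reads between 10186 and 12146, although library totals ranged from 1760953 to 3414362. The normalised values of both genes therefore largely followed the size factors and do not measure differences between libraries. Whether counts of the most abundant genes met a ceiling was not tested.

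Of the 100 genes, 37 had no read in any sample, and 22 more had reads but a mean below 1 normalised read, which left 41 for testing: 8 Klk genes, 4 Spink genes and 29 serpins. Among those without a read were Klk4, Klk15, 13 of the 14 Klk1 and Klk1b genes, Serpina1a to Serpina1f and Serpinb9b to Serpinb9g. Klk14, a trypsin-like enzyme of the cornified layer, had 1 read in 1 of the 8 libraries. Spink12 had 1 read in control replicates 1 and 2 and 0 elsewhere, and Serpinb3a had at most 1 read in any library, so a difference was not detectable at this depth for these genes.

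In p16 keratinocytes, 2 kallikreins, Klk7 and Klk6, fell, no kallikrein rose, and the serpins Serpinb7, Serpinb10 and Serpina3i rose. Serpina3n and Spink6 fell. The calls of Klk7, Klk6, Serpinb7 and Serpinb10 held in all 8 fits with 1 sample left out. Those of Serpina3i, Serpina3n and Spink6 held in 4, 2 and 5 of the 8. In limma over 12782 genes with Benjamini-Hochberg adjustment, 3 of the 41 tested genes were called higher at an adjusted p under 0.05, where 1.24% of all tested genes were, and 4 were called lower, where 2.61% were. By unadjusted p (under 0.05), 10 were higher and 10 lower, where 7.02% and 8.93% of all genes were. The 4 p16 samples lay above all 4 controls for 5 genes and below them for 4, where 4.19% and 5.63% of all genes did so.

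By family, limma called 0 of 8 Klk genes higher and 2 lower, 0 of 4 Spink genes higher and 1 lower, and 3 of 29 serpins higher and 1 lower. By unadjusted p they were 0 and 6 for Klk, 0 and 2 for Spink and 10 and 2 for serpins. On recovered reads, edgeR and DESeq2 also called 0 Klk and 0 Spink genes higher. The median log2 fold change was -0.69 over the 8 Klk genes, -0.65 over the 4 Spink genes, which were all below 0, and 0.34 over the 29 serpins, beside 0.00 over all 12782 genes. Over the 33 tested Spink and serpin genes together it was 0.12, with 18 genes above 0 and 15 below. Among those below 0 are Serpinb5, Serpinf1 and Serpinh1, which are not known as protease inhibitors. Without the library labelled p16 replicate 1 the counts higher and lower were 0 and 2 for Klk, 0 and 0 for Spink and 2 and 0 for serpins. Over all genes 69 were then called higher and 192 lower, against 159 and 334 with all libraries. Without p16 replicate 4 the counts were 0 and 4, 0 and 1, and 4 and 0, and 196 and 343 over all genes. In sorted bulk cells, fewer cells of a type and less RNA per cell cannot be told apart.

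Klk7, a chymotrypsin-like enzyme that cuts corneodesmosin and desmocollin 1, carried the most reads of its family. It had 722.5, 596.8, 872.8 and 1020.6 normalised reads in the controls and 183.1, 287.3, 290.8 and 252.4 in the p16 samples. All 4 p16 samples lay below all 4 controls, without overlap. The mean was 803.2 ± 183.7 (SD, n = 4) in controls and 253.4 ± 49.97 (SD, n = 4) in p16 samples. Its log2 fold change was -1.66 with a standard error of 0.17, and the adjusted p in limma was 8.49e-05. In all 16 other settings it stayed under the threshold, with adjusted p in limma, edgeR or DESeq2 up to 0.00146.

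Klk6, a trypsin-like kallikrein also known from the nervous system, had 23.0, 24.4, 74.3 and 42.8 normalised reads in controls, from 19 to 89 reads, and 5.6, 9.4, 9.8 and 4.9 in p16 samples, from 6 to 12 reads. The groups did not overlap, and control replicate 3 was the highest of the 8 samples. On the log2 scale the fold change was -2.21 with a standard error of 0.36, and the adjusted p in limma was 0.00304, under the threshold in all 16 other settings (up to 0.0151).

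The remaining 6 tested kallikreins were not called, and 4 of them had an unadjusted p under 0.05. Klk8 (neuropsin) had 99.4, 61.6, 51.8 and 103.9 normalised reads in controls and 34.4, 39.8, 34.6 and 75.6 in p16 samples. Of the p16 samples, replicate 4 lay within the control range and the others below it. Its log2 fold change was -0.79 with a standard error of 0.27 (adjusted p in limma 0.148). Klk8 overlaps exons of 2310002F09Rik on the opposite strand, and since the strand setting of the counting is not stated, reads of the 2 genes cannot be told apart.

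Klk5, the trypsin-like enzyme that activates other kallikreins in the cornified layer, had 105.3, 91.1, 150.3 and 184.9 normalised reads in controls and 64.8, 78.1, 84.2 and 121.7 in p16 samples. The groups overlapped, as p16 replicate 4 lay among the controls, and the log2 fold change was -0.58 with a standard error of 0.22 (adjusted p in limma 0.198). Without p16 replicate 4, Klk5 and Klk8 passed the threshold, with log2 fold changes of -0.76 and -1.05 and adjusted p in limma of 0.0491 and 0.0156. Klk10 was at 189.5 ± 79.24 normalised reads in controls and 118.4 ± 16.79 in p16 samples (SD, n = 4 each), and its log2 fold change was -0.58 (adjusted p in limma 0.243). Without control replicate 2 the log2 fold change of Klk10 was -0.83 (adjusted p in limma 0.0433), without control replicate 3 it was -0.38 (0.486), and without both samples of replicate 3 it was -0.31 (0.669). Klk13 had 1 to 5 reads in each control library and 0 to 2 in each p16 library, a ratio of 3.43 with a 95% counting interval of 1.17 to 12.2.

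Klk11 and Klk9 showed no difference beyond their spread. Klk11 had 123.9, 164.3, 159.5 and 169.6 normalised reads in controls and 142.3, 121.0, 114.4 and 250.8 in p16 samples, with the highest value in p16 replicate 4. Its log2 fold change was -0.04, with a 95% interval from -0.48 to 0.40. Klk9 had a log2 fold change of -0.24, with an interval from -1.06 to 0.58. All 8 tested Klk genes had a log2 fold change below 0, but the sign of Klk11 turned in 6 of its 16 other settings, edgeR with TMM scaling and DESeq2 among them.

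**Figure D1:**
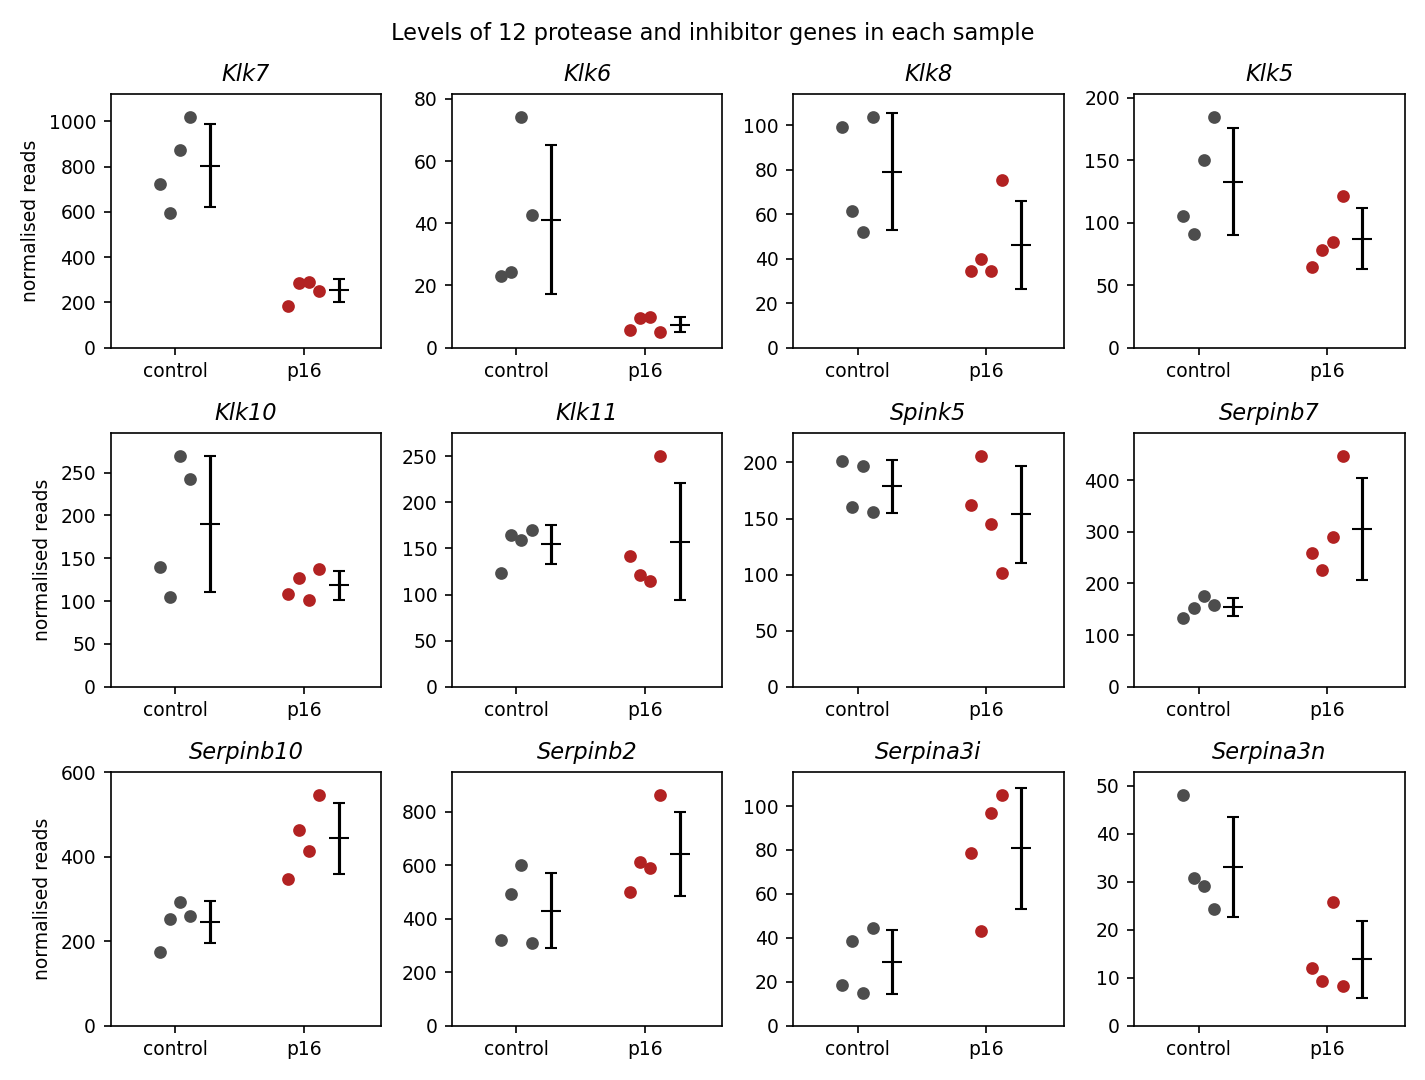
Normalised reads of 12 protease and inhibitor genes, with 1 point per sample (control in grey, p16 in red, replicates 1 to 4 from left to right) and the mean with its SD beside each group; every vertical axis starts at 0. Klk7 lay between 183.1 and 290.8 in p16 samples and between 596.8 and 1020.6 in controls, whereas Spink5 values of the groups overlapped.

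Summed over all 26 Klk genes, the samples had 1226.1, 1060.1, 1589.3 and 1787.6 normalised reads in controls and 544.5, 672.3, 645.6 and 858.3 in p16 samples. The groups did not overlap. Klk7 made up 54.9% to 58.9% of the Klk reads in the 4 controls and 29.4% to 45.0% in the 4 p16 samples, as a share of reads and not of protein. Without Klk7 the Klk sum was 612.6 ± 151.4 in controls and 426.8 ± 120.1 in p16 samples (SD, n = 4 each), and the groups overlapped, since p16 replicate 4 had 605.9. The sums were not tested.

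The 8 tested Klk genes lie in a row on chromosome 7 of GRCm38, all on the plus strand, in the order Klk13, Klk11, Klk10, Klk9, Klk8, Klk7, Klk6 and Klk5. The called genes are neighbours: Klk7 spans chr7:43811294-43816359 and Klk6 spans chr7:43824499-43832030. The next tested kallikrein after Klk6 is Klk5, at chr7:43841971-43851181, and the tested kallikrein before Klk7 is Klk8, at chr7:43797577-43803826. Klk11, whose interval spans 0, lies at chr7:43774604-43779263.

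**Figure D2:**
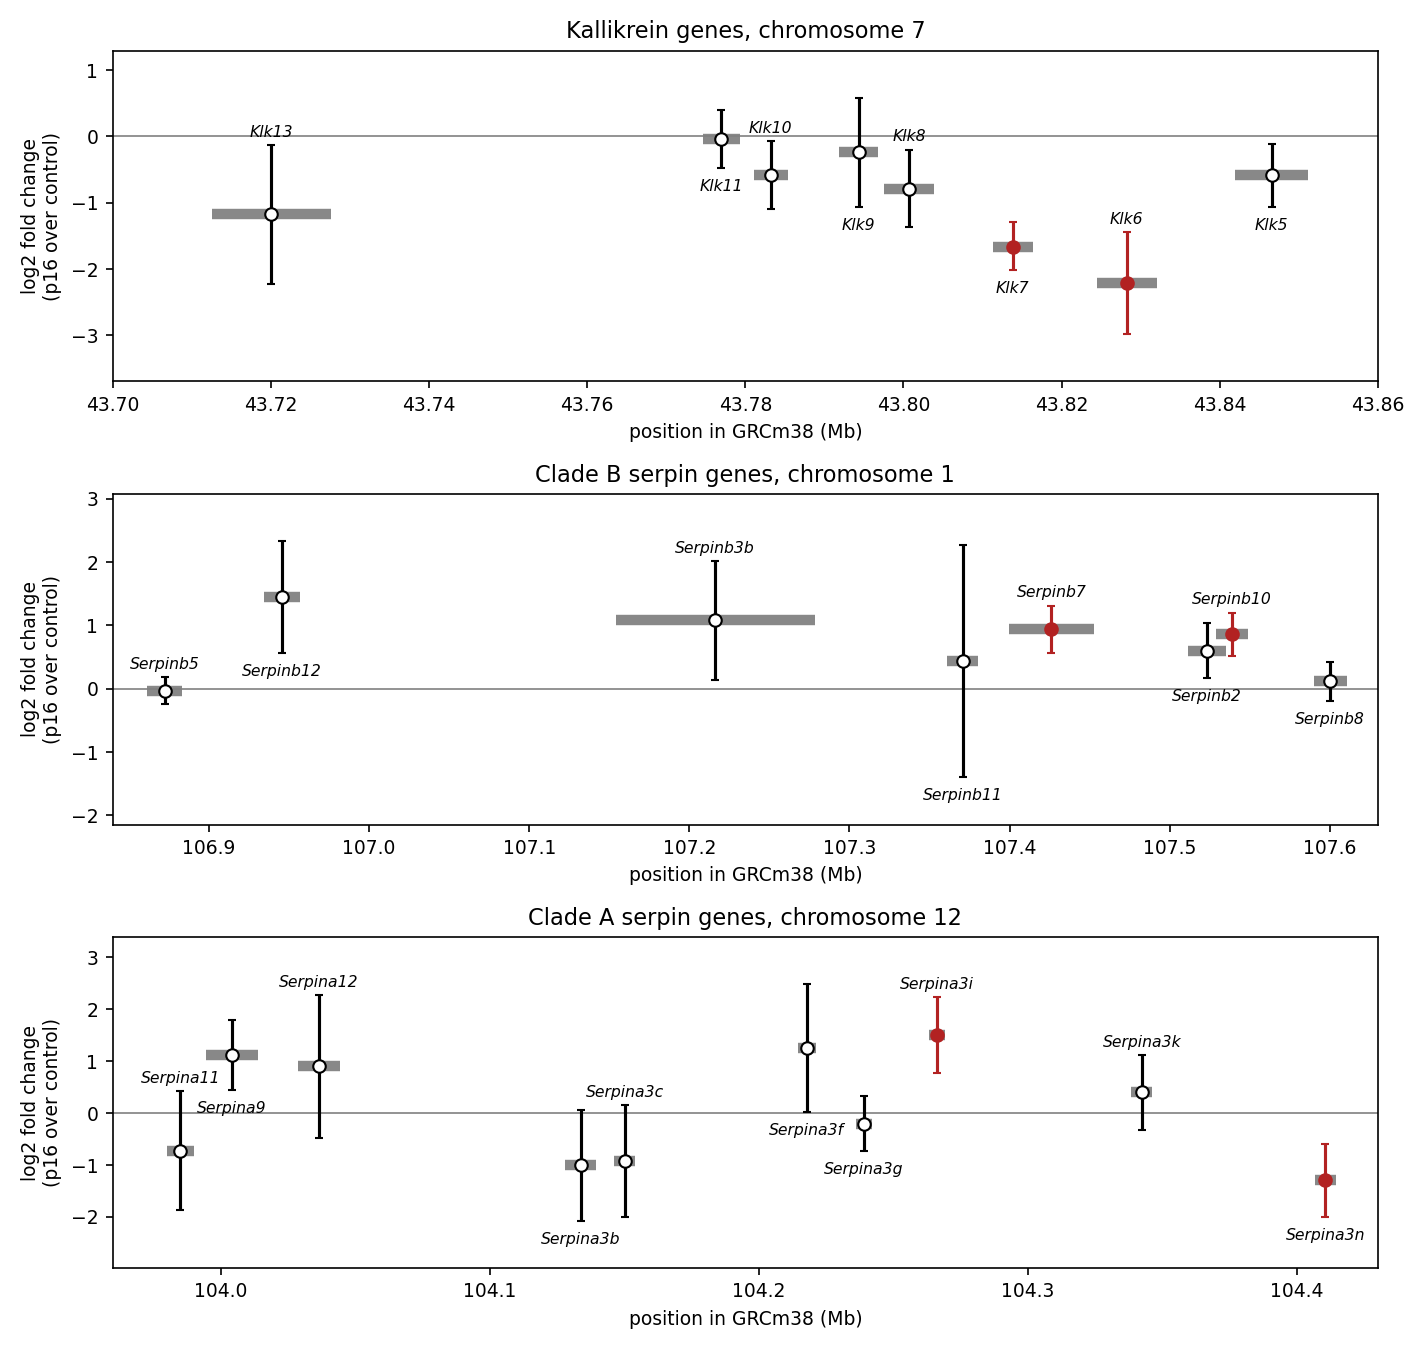
Log2 fold change (p16 over control) against position in GRCm38 for tested genes of the Klk row on chromosome 7, the clade B serpins on chromosome 1 and the clade A serpins on chromosome 12; points are limma estimates, vertical bars 95% intervals, grey bars gene spans, and red points have an adjusted p under 0.05. Klk7 (-1.66) and Klk6 (-2.21) sit side by side, and Serpina3i (1.5) and Serpina3n (-1.29) of the same group have opposite signs.

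The 250 bases before the RefSeq starts of Klk7, Klk6, Serpinb7 and Serpinb10 (GRCm38.p6, plus strand, 5′ to 3′) are shown because these members changed in all settings tried, the kallikreins lower and the serpins higher. Motifs searched on both strands are in capitals. They were the TATA box, spelled TATAAA, the AP-1 motif, spelled TGANTCA, a TCF/LEF motif, spelled CTTTGAT, and a Sp1/KLF motif, spelled GGGCGG. Klk6 has a pair of starts. The first sequence covers chr7:43811044-43811293, the next chr7:43824294-43824543 and chr7:43825200-43825449, and the serpin sequences chr1:107422439-107422688 and chr1:107528753-107529002. The Serpinb7 window lies inside the span of the gene in GENCODE M21 (chr1:107399655-107452689). Its motif positions therefore refer to this RefSeq start and not to the first annotated start.
Klk7: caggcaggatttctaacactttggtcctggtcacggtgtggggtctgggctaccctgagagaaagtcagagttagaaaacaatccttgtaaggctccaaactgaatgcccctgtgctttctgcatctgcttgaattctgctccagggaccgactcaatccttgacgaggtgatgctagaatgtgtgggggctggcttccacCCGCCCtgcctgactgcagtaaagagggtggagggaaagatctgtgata
Klk6, first start: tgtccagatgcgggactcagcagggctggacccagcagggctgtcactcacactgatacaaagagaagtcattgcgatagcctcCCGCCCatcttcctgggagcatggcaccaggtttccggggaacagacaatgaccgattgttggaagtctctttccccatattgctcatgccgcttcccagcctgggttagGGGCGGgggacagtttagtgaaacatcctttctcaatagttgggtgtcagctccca
Klk6, next start: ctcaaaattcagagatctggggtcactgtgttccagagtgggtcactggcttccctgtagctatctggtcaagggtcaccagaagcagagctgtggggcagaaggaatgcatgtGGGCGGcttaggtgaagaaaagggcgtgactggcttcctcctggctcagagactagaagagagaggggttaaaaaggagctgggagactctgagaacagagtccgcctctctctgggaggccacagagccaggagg
Serpinb7: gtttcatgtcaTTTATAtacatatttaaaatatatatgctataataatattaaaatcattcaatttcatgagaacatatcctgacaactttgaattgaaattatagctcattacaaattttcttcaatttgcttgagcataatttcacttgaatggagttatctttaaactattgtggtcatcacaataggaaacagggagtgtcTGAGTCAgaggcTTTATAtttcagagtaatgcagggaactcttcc
Serpinb10: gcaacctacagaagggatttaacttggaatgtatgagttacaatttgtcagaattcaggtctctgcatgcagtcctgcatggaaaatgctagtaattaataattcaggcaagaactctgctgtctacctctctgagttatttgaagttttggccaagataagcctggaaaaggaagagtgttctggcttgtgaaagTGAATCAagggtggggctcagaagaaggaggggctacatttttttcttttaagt
The Klk7 window held the Sp1/KLF motif at -49 and the Klk6 windows held it at -166 and -56 and at -136, counted from the start. The Serpinb7 window held the AP-1 motif at -45 and the TATA box, read from the other strand, at -239 and -33, and the Serpinb10 window held the AP-1 motif at -54. Of 32851 RefSeq windows of this length, 12.4% held the TATA box, 6.7% the AP-1, 3.2% the TCF/LEF and 32.7% the Sp1/KLF motif. Of the 10 windows of tested Klk genes, 0, 0, 0 and 4 held these motifs in that order, and of the 30 windows of tested serpins the numbers were 9, 8, 1 and 7. RefSeq windows were found for 33 of the 41 tested genes, 2 of them by symbol. A match describes the letters only.

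Among the Spink inhibitors, Spink5 (LEKTI), the main inhibitor of Klk5, Klk7 and Klk14 in skin, did not differ between groups beyond its spread. It had 201.0, 160.4, 197.1 and 155.8 normalised reads in controls and 162.3, 206.1, 145.4 and 101.1 in p16 samples. The highest of the 8 values was p16 replicate 2 and the lowest p16 replicate 4, so the groups overlapped. The log2 fold change was -0.25, with a 95% interval from -0.63 to 0.13 (adjusted p in limma 0.560), and the change of Klk7 lies outside this interval.

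Spink6, an inhibitor of kallikreins in human skin, had 11, 6, 12 and 2 reads in the controls and 1, 1, 2 and 1 reads in the p16 samples. All p16 libraries lay below all controls in normalised reads, but each p16 library was at the limit of detection. The ratio of control to p16 was 7.60 with a 95% counting interval of 2.93 to 25, which covers counting error only. The adjusted p in limma was 0.0191, and the call was lost without control replicate 1 (0.0727), control replicate 3 (0.0701), the library labelled p16 replicate 1 (0.0573) or both samples of replicate 3 (0.0911). Spink2, best known as an acrosin inhibitor of sperm, was at 13.3 ± 3.49 normalised reads in controls and 7.32 ± 4.27 in p16 samples (SD, n = 4 each; adjusted p in limma 0.254). Spink10 had 1 to 4 reads per library in each group.

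Proteases were set against their known inhibitors within each sample as the difference of log2(normalised reads + 1). Of 5 pairs listed, 4 were run, since Klk14 was too low to pair with Spink5. The p-values come from exact two-sided permutation tests over the 8 samples, in which 4 against 4 cannot give less than 0.0286, and they are not adjusted for the 4 pairs.

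The Klk7 to Spink5 difference was 1.84, 1.89, 2.14 and 2.7 in the controls and 0.17, 0.48, 1.00 and 1.31 in the p16 samples. Every p16 sample lay below every control. The mean change was -1.40 on the log2 scale, and the exact permutation p of 0.0286 is the smallest possible. By construction this change is that of Klk7 (-1.66) less that of Spink5 (-0.25). It therefore largely restates the fall of Klk7 and is not a separate result. Klk5 to Spink5 differences overlapped, at -0.93, -0.81, -0.39 and 0.25 in controls and -1.31, -1.39, -0.78 and 0.27 in p16 samples. Their mean change was -0.33 (exact permutation p = 0.571).

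Serpina12 (vaspin), an inhibitor of Klk7, was sparse, with 0 to 6 reads per control library and 1 to 13 per p16 library. The Klk7 to Serpina12 difference averaged 8.08 ± 1.43 in controls and 5.52 ± 1.24 in p16 samples (SD, n = 4 each; exact permutation p = 0.0857), and the groups overlapped. This change of -2.56 was -1.92 without control replicate 4 and -3.30 with a pseudocount of 0.1. For Plau (urokinase), the difference to Serpine2 (protease nexin-1) averaged -1.50 ± 0.35 in controls and -2.23 ± 0.72 in p16 samples (SD, n = 4 each; exact permutation p = 0.114). Plau itself was at 9 ± 3.16 normalised reads in controls and 9.93 ± 2.26 in p16 samples (SD, n = 4 each).

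**Figure D3:**
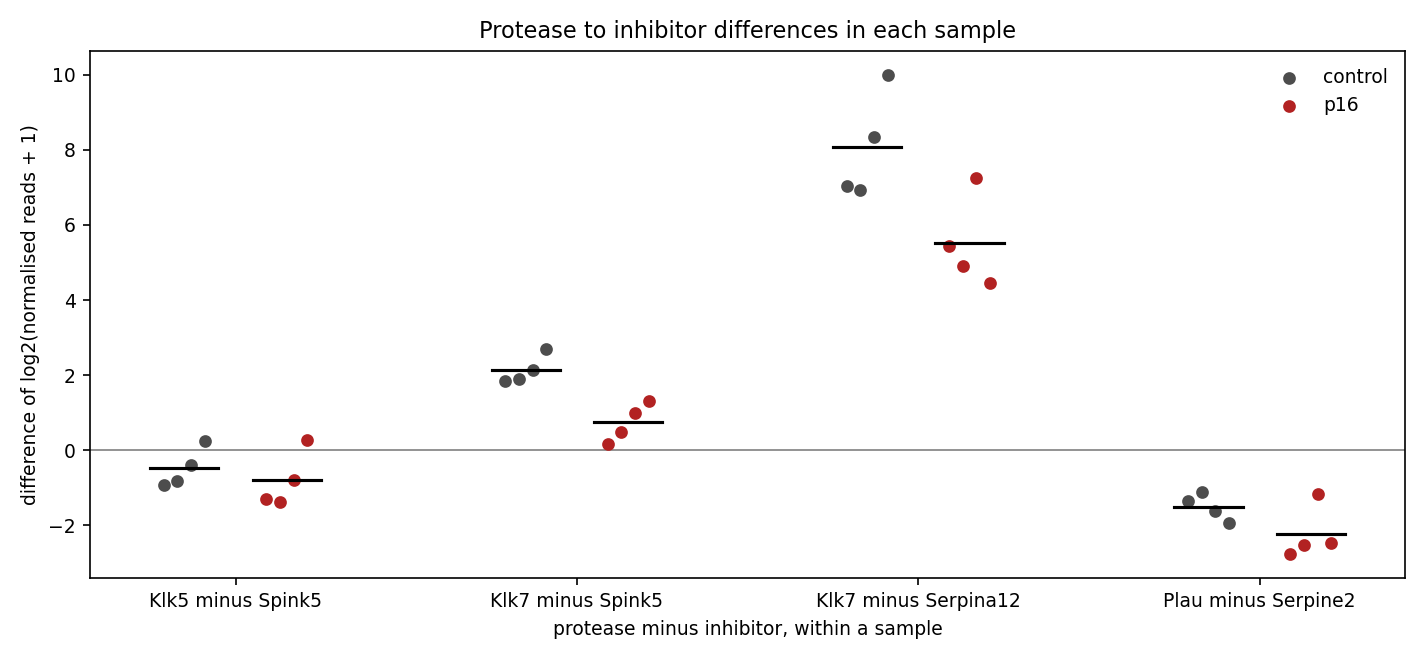
Difference of log2(normalised reads + 1) between a protease and an inhibitor within each sample, for the 4 pairs run; each point is a sample (control in grey, p16 in red) and each black bar a group mean. For Klk7 minus Spink5 the p16 samples lie between 0.17 and 1.31 and the controls between 1.84 and 2.7, while the groups overlap in the other pairs.

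Clade B serpins act mostly inside cells. Of the 27 genes, 14 were tested, and 2 were called higher and 0 lower in limma, as in edgeR and DESeq2, with 6 and 1 at an unadjusted p under 0.05. Over all tested genes, limma called 1.24% higher and 2.61% lower, and 7.02% and 8.93% by unadjusted p. Serpinb7, whose human counterpart is mutated in Nagashima-type palmoplantar keratosis, had 132.0, 151.4, 174.6 and 158.9 normalised reads in controls and 258.3, 226.4, 289.1 and 447.3 in p16 samples. All p16 samples lay above all controls, with p16 replicate 4 the highest. Its log2 fold change was 0.94 with a standard error of 0.17, and the adjusted p in limma was 0.0071, under the threshold in all 16 other settings (up to 0.0373).

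Serpinb10 (bomapin), first described in blood-forming cells, had 175.1, 251.5, 293.2 and 259.7 normalised reads in controls and 347.8, 463.8, 414.1 and 546.8 in p16 samples. The groups did not overlap. On the log2 scale the fold change was 0.86 with a standard error of 0.16, and the adjusted p in limma was 0.00747, under the threshold in all 16 other settings (up to 0.0231). Its neighbour Serpinb2 (PAI-2), an inhibitor of urokinase, had 322.0, 494.1, 599.7 and 308.6 normalised reads in controls and 501.3, 612.1, 591.4 and 865.0 in p16 samples. These groups overlapped, and the log2 fold change of 0.60 did not pass (standard error 0.20; adjusted p in limma 0.137, and 0.0454 without control replicate 3). In GENCODE M21, exons of Serpinb2 and Serpinb10 overlap on the same strand, so reads in the shared stretch could be assigned to either.

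The tested clade B genes of chromosome 1 lie in the order Serpinb5, Serpinb12, Serpinb3b, Serpinb11, Serpinb7, Serpinb2, Serpinb10 and Serpinb8. Serpinb7 spans chr1:107399655-107452689, and Serpinb10, placed by its symbol because its identifier is not in GENCODE M21, spans chr1:107529003-107549271. Of these 8 genes 7 had a log2 fold change above 0, Serpinb5 being the exception, with a median of 0.73, and of the 6 tested clade B genes of chromosome 13 there were 3, with a median of 0.03, beside 0.00 over all genes. Among the 7, Serpinb11 had 34.1, 19.3, 11.7 and 0 normalised reads in controls and 20.8, 14.8, 19.5 and 3.3 in p16 samples, so that its mean was lower in p16 samples (14.6 against 16.3). Its fitted log2 fold change of 0.44 had a 95% interval from -1.40 to 2.27 and turned to -0.66 without control replicate 4, -0.29 in edgeR and -0.17 in DESeq2. Serpinb5 (maspin), which is not known to inhibit proteases, is at the end of the row and had 792.1 ± 93.21 normalised reads in controls and 773.0 ± 44.41 in p16 samples (SD, n = 4 each). Its 95% interval was -0.24 to 0.18 on the log2 scale, and its sign turned with equal library totals. Serpinb8, at the other end, had a log2 fold change of 0.12, with an interval from -0.20 to 0.43.

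Serpinb3b, a mouse relative of the squamous cell carcinoma antigens, had 8.2, 12.8, 25.1 and 13.8 normalised reads in controls and 35.2, 32.8, 66.5 and 10.7 in p16 samples. Of the p16 samples, 3 lay above all controls and replicate 4 among them. The log2 fold change was 1.08 with a standard error of 0.44 (adjusted p in limma 0.241, and 0.0161 without p16 replicate 4). Serpinb3b shares exons with Serpinb3c, and 6.8% of the 50-base windows in the last 500 bases of its transcripts occur in another gene. Serpinb12 had 1 or 2 reads per control library and 3 to 10 per p16 library, without overlap in normalised reads, a ratio of 4.41 with a 95% counting interval of 1.67 to 14.7 (adjusted p in limma 0.0729). With no filter on low values its adjusted p in limma was 0.0466.

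On chromosome 13, Serpinb6a, an inhibitor of cathepsin G, had 709.2, 793.1, 743.3 and 589.7 normalised reads in controls and 651.6, 633.2, 634.9 and 766.3 in p16 samples. The groups overlapped, and the 95% interval of the log2 fold change was -0.30 to 0.16. Exons of Serpinb6a overlap Nqo2 and Ripk1 on the opposite strand. Its relatives were near the limit of detection: Serpinb6b had 0 to 1 reads per control library and 2 to 4 per p16 library, a ratio of 8.98 with a 95% counting interval of 1.31 to 386. Serpinb6d had 1 to 5 reads per control library and 0 to 1 per p16 library, a ratio of control to p16 of 6.74 with an interval of 1.47 to 62.6. Both were without overlap in normalised reads and neither passed in limma (adjusted p 0.171 and 0.173).

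Clade A serpins are mostly secreted. Of 24 genes, 10 were tested, all on chromosome 12, and 1 was called higher and 1 lower in limma, where 1.24% and 2.61% of all tested genes were. Serpina3i had 18.5, 38.5, 15 and 44.3 normalised reads in controls and 78.4, 42.9, 96.6 and 105.2 in p16 samples. The p16 samples were higher except replicate 2, which lay just under control replicate 4. Its log2 fold change was 1.5 with a standard error of 0.34, and the adjusted p in limma was 0.0222. The call was lost without control replicate 1 (0.0807), control replicate 3 (0.0658), the library labelled p16 replicate 1 (0.0682), p16 replicate 3 (0.0691) or both samples of replicate 3 (0.164).

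Serpina3n, related to human antichymotrypsin and able to inhibit granzyme B, was lower in p16 samples. It had 48.2, 30.8, 29.2 and 24.4 normalised reads in controls and 12, 9.4, 25.7 and 8.2 in p16 samples. In p16 samples 3 values lay below all controls, and replicate 3 lay within the control range. On the log2 scale the fold change was -1.29 with a standard error of 0.33, and the adjusted p in limma was 0.0411. Of 8 fits with 1 sample removed it passed in 2, and it was highest, at 0.155, without control replicate 1. Without control replicates 2 and 3 it was 0.0818 and 0.0788, without the library labelled p16 replicate 1 it was 0.106, and without p16 replicates 2 and 4 it was 0.0916 and 0.0725. The call was also lost with no filter (0.0594) and with equal library totals (0.0539).

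The other Serpina3 genes varied. Serpina3f had 54.9, 57.8, 7.5 and 94.7 normalised reads in controls and 111.9, 42.9, 124.1 and 136.5 in p16 samples. Control replicate 3 was the lowest and p16 replicate 2 lay among the controls, as it did for Serpina3i. Its log2 fold change was 1.25 with a standard error of 0.57 (adjusted p in limma 0.304), and it was 0.50 without control replicate 3 and 0.37 without both samples of replicate 3. Among windows of 50 bases in the last 500 bases, 2.8% of those of Serpina3f, 0.4% of those of Serpina3i, 0.0% of those of Serpina3n and 21.4% of those of Serpina3g occur in another gene, so counts of Serpina3g are uncertain. Over the 7 tested Serpina3 genes, 3 had a fold change above 0, and the median was -0.20.

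Serpina9 (centerin), known from germinal-centre B cells, had 4.5, 3.9, 8.4 and 4.6 normalised reads in controls and 9.6, 14.8, 14.2 and 11.5 in p16 samples. The groups did not overlap, yet the log2 fold change of 1.12 missed the threshold (standard error 0.31; adjusted p in limma 0.0684, and 0.0445 without control replicate 3). An exon of Serpina9 overlaps Gm28577 on the same strand. Serpina12 was at 2.52 ± 2.07 normalised reads in controls and 5.85 ± 4.57 in p16 samples (SD, n = 4 each; adjusted p in limma 0.555).

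Among the remaining serpins, Serpine2, an inhibitor of thrombin and urokinase, had 35.6, 20.5, 25.1 and 26 normalised reads in controls and 65.6, 53.9, 31.0 and 54.3 in p16 samples. Of the p16 samples 3 lay above all controls. The log2 fold change was 0.89 with a standard error of 0.24 (adjusted p in limma 0.0597). It passed with DESeq2 (0.0396), without p16 replicate 3 (0.0157) and without both samples of replicate 3 (0.0444). The adjusted p in limma was highest, at 0.199, without the library labelled p16 replicate 1.

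Serpins that are not known as protease inhibitors gave no call. Serpinh1 (HSP47), a chaperone of collagen, had 299.9 ± 70.42 normalised reads in controls and 275.6 ± 48.57 in p16 samples (SD, n = 4 each), with a 95% interval of -0.45 to 0.23. Serpinf1 (PEDF) had 0 to 4 reads per control library and 1 to 2 per p16 library, a ratio of control to p16 of 1.96 with a 95% counting interval of 0.566 to 7.62. Summed over the 62 serpins, controls had 3007.5, 3407.4, 3520.5 and 2912.0 normalised reads and p16 samples 3453.5, 3756.1, 3764.1 and 4317.2, which overlap. The Klk sum divided by the sum of Spink and serpin reads was 0.419 ± 0.119 in controls and 0.169 ± 0.0179 in p16 samples (SD, n = 4 each), between 0.295 and 0.579 in controls and between 0.150 and 0.194 in p16 samples. This ratio mixes enzymes and inhibitors that do not meet, and it was not tested. Its divisor also includes serpins not known as protease inhibitors, Serpinb5 (792.1 normalised reads on average in controls) and Serpinh1 among them.

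Other proteases of the epidermis were measured for comparison. Of 24 listed, 23 were tested, and 0 were called higher and 2 lower in limma, as in edgeR and DESeq2 (2 and 10 at an unadjusted p under 0.05). Over all tested genes, limma called 1.24% higher and 2.61% lower, and 7.02% and 8.93% by unadjusted p. The same shares stand beside the counts of every list below. The median log2 fold change was -0.17. Ctsl (cathepsin L) fell from 318.9 ± 32.7 to 160.4 ± 46.07 normalised reads (SD, n = 4 each; adjusted p in limma 0.00223). Ctsd (cathepsin D), an aspartic protease of lysosomes, fell from 849.2 ± 152.9 to 513.0 ± 91.05 (SD, n = 4 each; adjusted p in limma 0.00854, and 0.0785 without both samples of replicate 3). Ctsb, with the most reads of the list, was at 2905.9 ± 258.8 and 2605.5 ± 131.2 (SD, n = 4 each; adjusted p in limma 0.472).

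Of 28 other inhibitors listed, 27 were in the table and 20 were tested, of which 0 were called higher and 5 lower in limma (0 and 3 in edgeR, which gave no value for Wfdc3 and Wfdc18, 0 and 5 in DESeq2, 2 and 6 at an unadjusted p under 0.05), with a median log2 fold change of -0.17. Cst6 (cystatin E/M), an inhibitor of legumain and cathepsin L, had 3227.0, 2920.9, 5252.6 and 5177.7 normalised reads in controls and 1347.3, 1662.2, 1745.0 and 1574.5 in p16 samples. The groups did not overlap, and the adjusted p in limma was 0.000441. Cstb (cystatin B), which inhibits cathepsins inside cells, fell from 1368.5 ± 303.2 to 718.6 ± 52.68 (SD, n = 4 each; adjusted p in limma 0.00216). Pi15 and Wfdc3 also fell, with log2 fold changes of -1.77 and -2.05 and adjusted p in limma of 0.0189 and 0.0220. Wfdc18, with 6 to 40 reads per control library and 1 to 3 per p16 library, fell too, by a ratio of control to p16 of 9.94 with a 95% counting interval of 4.96 to 22.6 (adjusted p in limma 0.00575). In limma, Pi15 lost its call without control replicates 1 (adjusted p 0.0610), 3 (0.0512) or 4 (0.0609) or the library labelled p16 replicate 1 (0.0558). Wfdc3 lost it without control replicates 1 (0.0924) or 3 (0.0775) or p16 replicate 2 (0.0519), and without both samples of replicate 3 Pi15, Wfdc3 and Wfdc18 lost it (0.0776, 0.137 and 0.0518). The summed list was 9208.4, 8298.1, 12504.7 and 10532.7 normalised reads in controls and 6169.5, 6592.7, 6672.0 and 6234.7 in p16 samples, without overlap, with A2m, Stfa2l1 and Wfdc12 at 0.

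Of 15 substrates and receptors of these proteases, 13 were tested and 0 were called higher or lower in limma or edgeR, with 2 higher and 0 lower in DESeq2 and by limma's unadjusted p, and a median log2 fold change of 0.06. Those higher by limma's unadjusted p were Hrnr and Flg2, with log2 fold changes of 1.84 and 1.3 (adjusted p in limma 0.0963 and 0.0596). Both are also in the list of granular markers below. Dsg1a, a desmosomal cadherin with the most reads of the list, had 683.8 ± 81.95 normalised reads in controls and 678.1 ± 128.8 in p16 samples (SD, n = 4 each). Cdsn (corneodesmosin) was at 94.7 ± 47.95 and 94.97 ± 22.24, and F2rl1 (PAR2), the receptor cut by trypsin-like kallikreins, at 309.4 ± 27.58 and 323.9 ± 39.7 (SD, n = 4 each).

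Markers of the layers and appendages of the epidermis differed between the groups beside these genes, and their part in the differences of kallikreins and inhibitors was not tested. Of 6 granular markers, all tested, Lor and Lce1c were called higher and 0 lower in limma (1 and 0 in edgeR, which gave no value for Lce1c, 4 and 0 in DESeq2, 4 and 0 at an unadjusted p under 0.05), and the summed list was 330.0, 139.9, 327.3 and 180.3 normalised reads in controls and 315.1, 755.8, 341.4 and 673.4 in p16 samples, which overlap. Lor (loricrin), a main protein of the cornified envelope and the most abundant of the list, had 152.8, 47.5, 95.2 and 71.8 normalised reads in controls and 188.7, 426.3, 179.1 and 416.9 in p16 samples (adjusted p in limma 0.00951). Lce1c, another envelope gene, had 0 to 3 reads per control library and 5 to 22 per p16 library and rose by a ratio of 7.07 with a 95% counting interval of 3.04 to 20.2 (adjusted p in limma 0.0282), a call lost without control replicates 1 (0.0898) or 2 (0.0686) or p16 replicates 2 (0.0533), 3 (0.107) or 4 (0.0535). Of 6 spinous markers Sbsn and Ivl were called lower in limma, Ivl not without control replicates 1 (adjusted p 0.0610) or 3 (0.0730) or the library labelled p16 replicate 1 (0.0685), and the sums were 7276.5, 6647.8, 9035.1 and 7058.4 in controls and 7780.6, 6494.4, 8728.3 and 9911.0 in p16 samples, with Krt10 the most abundant. The spinous counts higher and lower were 0 and 2 in limma and edgeR and 1 and 2 in DESeq2 and at an unadjusted p under 0.05. Krt1, a keratin of the spinous layer, was at 1597.2 ± 376.6 in controls and 2366.3 ± 547.1 in p16 samples (SD, n = 4 each; adjusted p in limma 0.0952, 0.0408 without control replicate 3 and 0.0391 without p16 replicate 2, and 0.0418 in DESeq2). Of 7 basal markers Krt15 was called lower (adjusted p in limma 0.0463, and 0.0972 to 0.128 without control replicates 2 or 4, p16 replicates 2 or 3 or the library labelled p16 replicate 1), and the sums were 31880.9, 49483.5, 35191.9 and 52881.9 in controls and 33774.9, 32055.6, 35541.0 and 36674.6 in p16 samples, with Krt5 the most abundant. Krt5 and Krt14, whose recovered reads hardly followed library depth, make up much of these sums, which therefore partly follow the size factors. Krt15 had 11381, 10236, 10290 and 8065 reads in controls and 8835, 8654, 7452 and 9528 in p16 samples. Whether a ceiling on high counts affects its call was not tested. The basal counts were 0 and 1 in limma, edgeR and DESeq2 and 2 and 1 at an unadjusted p under 0.05, 4 of the 7 log2 fold changes were above 0, and their median was 0.09. Itgb4 and Itga6, which encode the integrin of hemidesmosomes, were the higher pair, Itgb4 at 734.0 ± 45.3 and 960.8 ± 176.1 (SD, n = 4 each; adjusted p in limma 0.104, and 0.0491 without p16 replicate 2) and Itga6 at 1236.3 ± 139.0 and 1426.4 ± 64.11 (SD, n = 4 each; adjusted p in limma 0.293). Without both samples of replicate 3, Lce1c, Sbsn, Ivl and Krt15 lost their calls in limma (adjusted p 0.114, 0.0544, 0.0976 and 0.0930), as did Lce1c with a pseudocount of 0.1 (0.0855) and Krt15 with that pseudocount (0.0516) or no filter (0.0786).

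The sum of hair-follicle bulge markers was lower in each p16 sample than in each control. The summed list of 6 genes was 3189.1, 2483.2, 2855.5 and 3185.5 normalised reads in controls and 1456.8, 1774.7, 1768.1 and 1003.0 in p16 samples, without overlap, and Cd34, Tbx1, Lhx2, Sox9 and Nfatc1 were called lower in limma (0 higher and 5 lower in limma, edgeR and DESeq2, 0 and 6 at an unadjusted p under 0.05). Lgr5, a stem cell marker of the lower follicle, was not called, with 81.6, 44.9, 52.6 and 93.2 normalised reads in controls and 48.0, 34.4, 63.0 and 24.7 in p16 samples, which overlap (adjusted p in limma 0.241). Cd34, a surface marker of bulge cells, fell from 169.0 ± 51.45 to 11.82 ± 4.078 normalised reads (SD, n = 4 each; adjusted p in limma 3.27e-06), and Sox9 was the most abundant of the list. The call of Sox9 in limma was lost without control replicates 1 (adjusted p 0.0867), 3 (0.0775) or 4 (0.0896) or the library labelled p16 replicate 1 (0.0864). Of 5 upper follicle markers Krt75 and Defb6 were called lower, and the sums were 12939.7, 13172.3, 15059.5 and 19147.9 in controls and 11942.2, 12060.4, 14237.1 and 11496.1 in p16 samples, with Krt17 the most abundant. Of 5 sebaceous gland markers 4 were tested, and Mgst1, Scd1, Pparg and Awat2 were all called lower in limma (3 lower in edgeR, which gave no value for Awat2, and 3 in DESeq2). Their sums were 1313.7, 1179.4, 1364.7 and 1278.8 in controls and 353.4, 570.7, 399.9 and 390.5 in p16 samples, without overlap, with Scd1 the most abundant, and Awat2 lost its call in limma without control replicates 3 (adjusted p 0.0653) or 4 (0.0589), p16 replicate 3 (0.0563) or the library labelled p16 replicate 1 (0.0682). Nfatc1, Sox9 and Awat2 lost their calls in limma without both samples of replicate 3 (adjusted p 0.0610, 0.0746 and 0.144), as did Sox9 with equal library totals (0.0507) and Awat2 in DESeq2 (0.0548).

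Markers of other skin cell types were read too, since the gate took out cells stained for CD140a, CD45 or CD31 and not melanocytes. Of 7 fibroblast genes 6 were tested, and Dcn was called higher in limma (adjusted p 0.000233), with 5.9, 2.6, 4.2 and 10.7 normalised reads in controls and 85.6, 89.8, 203.0 and 36.2 in p16 samples. Pdgfra, which encodes CD140a, was between 0 and 3.5, Lum was at 0 in every sample, and the sums were 126.0, 88.7, 101.8 and 163.5 in controls and 176.8, 160.8, 287.2 and 236.0 in p16 samples, with Col6a1 the most abundant. Without Dcn the sums were 120.1, 86.1, 97.6 and 152.8 in controls and 91.2, 71.0, 84.2 and 199.8 in p16 samples, which overlap. Of the 6 tested fibroblast genes 3 had a log2 fold change above 0 and 3 below, and the counts higher and lower were 1 and 0 in limma, edgeR and DESeq2 and 2 and 1 at an unadjusted p under 0.05. Col1a2, a chain of type I collagen, had 17.8, 10.3, 4.2 and 9.2 normalised reads in controls and 1.6, 3.1, 2.7 and 3.3 in p16 samples, all below the controls (adjusted p in limma 0.0571, and 0.0243 without control replicate 3). Of 5 melanocyte markers Dct, the most abundant, and Tyrp1 were called lower, with sums of 428.1, 114.3, 70.1 and 200.1 in controls and 36.0, 85.1, 18.7 and 13.9 in p16 samples. Without control replicates 1 or 4, p16 replicate 3 or the library labelled p16 replicate 1, the adjusted p in limma lay between 0.0654 and 0.0745 for Dct and between 0.0580 and 0.107 for Tyrp1, which also missed without control replicate 2 (0.0569). Tyrp1 missed too without both samples of replicate 3 (adjusted p in limma 0.0844), with a pseudocount of 0.1 (0.0801) and in edgeR (0.0501). T-cell markers summed to between 7.6 and 18 in controls and between 3.6 and 13.3 in p16 samples, led by Cd3d, and Langerhans and myeloid markers to between 105.5 and 124.5 and between 107.3 and 151.9, led by Cd74, with Lyz2 at 0. Endothelial markers, led by Pecam1, summed to between 2.6 and 5.0 in controls and between 3.9 and 8.9 in p16 samples, with Cdh5 and Kdr at 0, and smooth muscle markers, led by Acta2, to between 6.1 and 11.7 and between 4.9 and 10.2. The mast cell markers Cpa3, Mcpt4 and Tpsb2 were at 0 in every sample. In the lists of T, Langerhans and myeloid, endothelial, smooth muscle and mast cells 0 genes were called in limma, edgeR or DESeq2, and at an unadjusted p under 0.05 Cd3d was lower and Cd207 higher.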

How the data were processed

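Normalised reads were compared between 4 control and 4 p16 samples of sorted GFP-positive keratinocytes, each pooled from 3 mice and drawn from several independent experiments, whose assignment to replicates was not stated. The deposited signal was made by the authors: CEL-Seq 3′ libraries (worded as Illumina RNA sequencing for replicate 3 of both groups) were trimmed with Cutadapt, aligned to GRCm38 with TopHat2, counted and divided by a size factor for each library, and the submitters' processing notes name HTSeq and DESeq2. Use of molecular identifiers and the strand setting were not stated, so it is not known whether each recovered read is a separate molecule. Intervals treat recovered reads as independent counts and cover counting error only. Whole reads were recovered from the steps of the values (99.97% to 100.0% whole, tolerance 0.051 normalised reads). The 6 columns of the authors' own comparison (group means, log2 ratio, statistic and p-values) were not used, and 13 samples of another profiling were not analysed here.

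The test was limma 3.58.1 in R 4.3.3 (linear model, moderated with a trend, two-sided) on log2(value + 1) for the 12782 genes with a mean of at least 1, with Benjamini-Hochberg adjustment over all of them and calls at an adjusted p under 0.05. Fold changes on this scale understate those of low genes. On recovered reads, edgeR 4.0.16 called 160 genes higher and 299 lower and DESeq2 1.42.0 called 188 and 355. Protease and inhibitor pairs were compared with exact permutation tests (Python 3.11.15, numpy 2.4.6, pandas 2.3.3). Scripts were tested on simulated data. Groups with at most 3 reads in each library were given as a ratio of summed reads with an exact 95% interval, or with no ratio where both groups were that low. Alternatives were a pseudocount of 0.1, no filter, a mean of at least 10, equal library totals, a replicate block, each sample left out, both samples of replicate 3 left out, edgeR, DESeq2 and unadjusted p. The members and lists were chosen with earlier results of these data known. Genes were named by rule: members with an unadjusted p under 0.05, the 3 most abundant of each family, members of the pairs or with known roles, and of each list the called genes and the most abundant, and other genes named were chosen after their values were seen. The family counts and sums include 1 serpin whose own values and pair are not reported here. Coordinates are from GENCODE M21, where 99 members matched by identifier and 1 by symbol, and promoter sequences from RefSeq (GRCm38.p6).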

Additional observations from a re-analysis of the deposited data

Results flagged for a closer look

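In 7 of 56 groups of 4 samples checked, 1 sample lay far from the other 3. Chance gives about 1 in 20 for continuous values, a rate that does not hold for the groups of Serpinf1, Serpinb6b and Spink6 below, where 1 read sets the gap. Among the p16 samples, Klk8 was highest in replicate 4, at 75.6 normalised reads, and Serpinb6a was highest there too, at 766.3, as was Serpinf1, at 1.6, which is 2 reads. Serpina9 was highest among controls in replicate 3, at 8.4. Serpinb8 was highest among controls in replicate 2, at 238.7, and Serpinb6b had its only control read there, at 1.3. Spink6 had 2 reads in p16 replicate 3, at 1.8, and 1 read in each of the other p16 libraries.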

How the results depend on the processing

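For the 28 tested members named by rule, 433 comparisons with another setting gave the same direction and side of the threshold in 390, a call lost in 17, a call gained in 13 and a turned sign in 13. Klk7, Klk6, Serpinb7 and Serpinb10 kept their calls in all 16 settings. Serpins called lower fell to 0 with no filter and with equal library totals, and Spink genes called lower to 0 with a mean of at least 10, with edgeR and with both samples of replicate 3 left out. Leaving both out gave 66 genes higher and 157 lower. With unadjusted p, 897 genes were higher and 1141 lower, 6 Klk and 2 Spink genes lower, and 10 serpins higher and 2 lower. Leaving out 1 sample at a time gave 69 to 196 genes higher and 177 to 343 lower, 2 to 4 Klk lower, 0 to 1 Spink lower, 2 to 4 serpins higher and 0 to 1 lower. The replicate block called 216 genes higher and 392 lower and 4 Klk lower (Klk5 at an adjusted p of 0.0244 and Klk8 at 0.0322 in limma, with Serpine2 at 0.0296 and Krt1 at 0.00619). Deviations of same-numbered samples correlated at 0.106, 0.021, 0.064 and 0.178, which are low but all above 0. Not every sample correlated best with its own number, as control replicate 2 did so with p16 replicate 1 (0.131). These correlations do not settle whether the numbers pair the samples. The Klk7 to Spink5 change was -1.49 with both samples of replicate 3 left out (exact permutation p = 0.1) and -1.60 to -1.22 with 1 sample left out (exact permutation p = 0.0571), each the smallest p that so few samples allow. With 1 sample left out, the Klk5 to Spink5 change ranged from -0.69 to -0.10, the Klk7 to Serpina12 change from -3.14 to -1.92 and the Plau to Serpine2 change from -1.08 to -0.55.

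Some signs turned, and the cause was not tested. Klk11 was at 0.11 with both samples of replicate 3 left out, 0.03 in edgeR and in DESeq2, and -0.29 to 0.09 with 1 sample left out. Serpinb11 was at -0.29 in edgeR, -0.17 in DESeq2 and -0.66 to 1.05 with 1 left out. Serpinb5 was at 0.01 with equal totals and with both samples of replicate 3 left out and Serpinb8 at 0.00 with the latter. With 1 sample left out, Serpinb5 ranged from -0.10 to 0.03, Serpinh1 from -0.22 to 0.03, Acta2 from -0.32 to 0.04 and Krt10 from 0.00 to 0.28. Col6a1 was at 0.01 with both samples of replicate 3 left out, 0.03 in edgeR and in DESeq2 and -0.46 to 0.07 with 1 left out, Dsg1a at 0.01 with equal totals and -0.12 to 0.07 with 1 left out, and Plau at -0.04 with both samples of replicate 3 left out. Spink6, Klk13, Serpina12, Serpinb12, Serpinb6b, Serpinb6d, Serpinf1, Awat2, Cd3d, Lce1c, Pecam1, Wfdc18 and Col1a2 gave no value in edgeR or with a mean of at least 10, nor did Wfdc3 in edgeR. Depth limits genes of a few reads: 1 read is 0.742 to 1.53 normalised reads.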
